A study of Mus musculus with 4 samples.

Results

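The 10 genes described here are Hsf1, Hspa1a, Hspa1b, Hspa8, Hsph1, Hsp90aa1, Hsp90ab1, Dnajb1, Hspb1 and Hspe1, the core of the heat shock chaperone system. Every non-control probe that carries 1 of these gene names in the scanner files was taken, which gave 10 genes and 17 probes, of 41174 probes on the array. Of the genes, 6 had more than 1 probe and 4 genes had 1 probe. The accessions of 16 probes led to the same symbol in a RefSeq gene table. The genes are grouped here as cytosolic heat shock chaperones, but Hsf1 is a transcription factor and Hspe1 encodes a mitochondrial protein, so the name fits the other 8 genes.

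Liver RNA of male C57BL/6J mice with diet-induced obesity (DIO) was hybridised to 60-mer whole mouse genome arrays. All mice were 8 weeks old at purchase, ate a high-fat diet for 14 weeks and weighed at least 40 g. They then received 2 µL into the nose once daily for 11 days, either porcine galanin-like peptide (GALP, a hypothalamic neuropeptide) dissolved to 1 nmol in saline with 5% α-cyclodextrin, or saline. The GALP group was divided by its response, and RNA of the 4 mice that lost more weight (the greater-loss pool) and of the 4 that lost less (the less-loss pool) was pooled, as was RNA of the 8 mice given saline (the control pool). Dose and age were the same in both GALP pools. Each GALP pool met the control on 2 arrays, once in Cy5 and once in Cy3, which gave 4 arrays on 1 slide. Since a dye-swap pair holds the same RNA, it counts as 1 replicate, so every mean ± SD is over n = 2 pools. The labels give the control channel a weight loss group too, whereas the methods describe 1 control pool, which was treated as a single sample whose spread enters no SD and no test.

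Chaperones of the HSP70 family bind exposed hydrophobic stretches of other proteins and release them by cycles of ATP hydrolysis, started by J proteins and ended by nucleotide exchange factors. HSP90 takes over late-folding clients such as steroid receptors and kinases. Under proteotoxic stress, heat shock factor 1 leaves its complex with these chaperones, forms trimers and binds heat shock elements, inverted repeats of the letters GAA, in the promoters of chaperone genes. In liver the inducible members are known to follow body temperature, feeding and time of day as well as heat.

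Hspa1a, the stress-inducible HSP70, was lower in both GALP pools and was the only member with a called probe. No probe of another member was called. Hspa8 and Hsph1 were above 0 in the greater-loss pool, and the HSP90 genes lay near 0. A second pattern, looked for after values had been seen, ran through the 9 members with a value on all arrays. All 15 of their probes with signal had a higher ratio in the greater-loss pool than in the less-loss pool. Of all genes, each at its brightest probe, 52.5% had this direction. In the plot of the member probes the blue marks lie to the right of the orange marks in nearly every line.

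**Figure D1:**
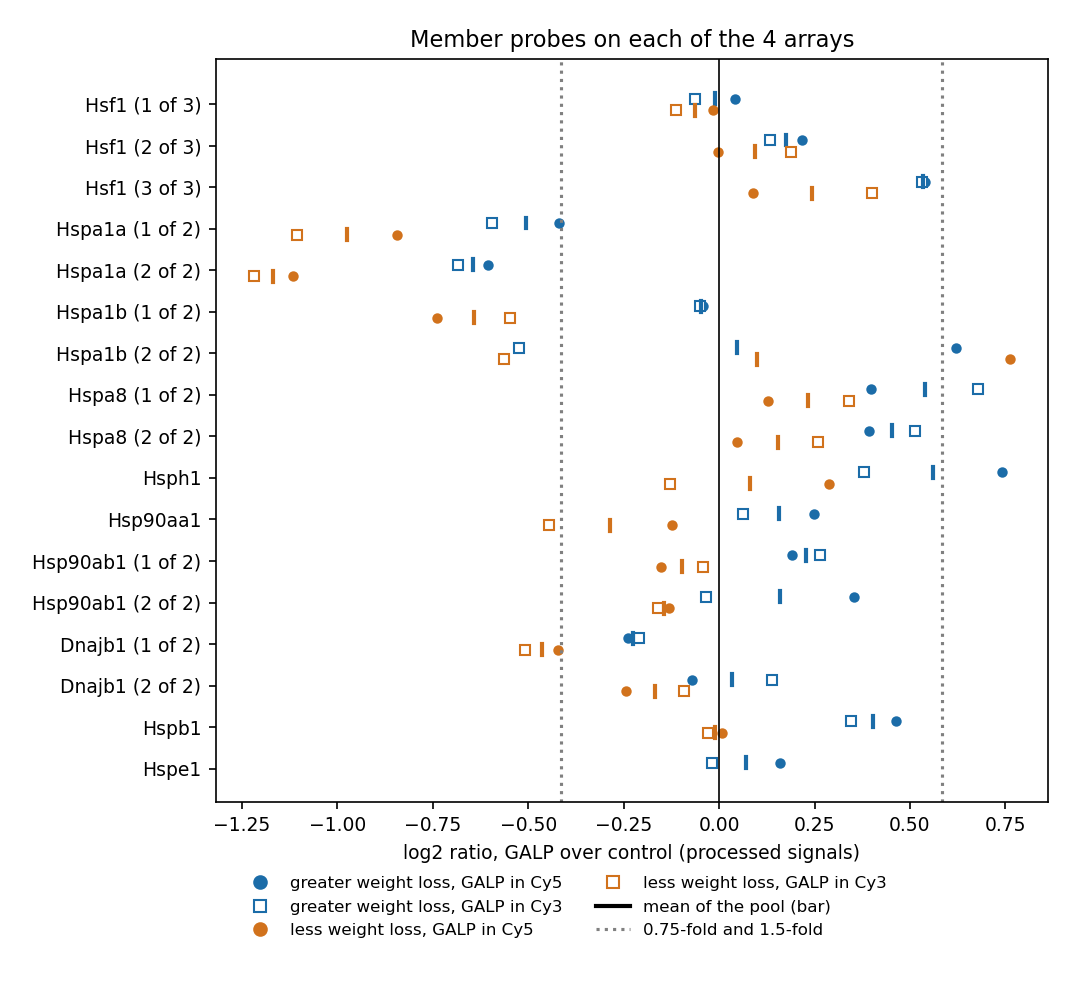
Log2 ratio of GALP over control (x axis) for the 17 member probes (rows, probes of a gene ordered by mean signal), with 1 mark per array and a short bar at the mean of each pool. Both Hspa1a probes lie below 0 on all 4 arrays, and the second Hspa1b probe, which was at background, has its marks on either side of 0 by dye.

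A member was called by the thresholds of the methods, read here as 3 conditions, since the methods leave unstated which arrays must pass the p-value. The fold was over 1.5 or under 0.75 in both pools (0.58 and -0.42 on the log2 scale), every array had a Feature Extraction p-value under 0.01, and every array had the same direction. This p-value compares the extracts on 1 array and says nothing of the spread between mice. Among the members, 1 probe was called lower and 0 were called higher. With the p-value required on at least 1 array of each pool instead, 2 were called lower and 0 higher, against 0.407% and 0.129% of all probes. Over the 41037 probes with a value on all arrays, 0.132% were called lower and 0.0585% higher. Among the 15724 probes with signal (at least 1 channel well above background on each array), these shares were 0.343% and 0.153%. With the same conditions on the 2 arrays of the greater-loss pool alone, 1 member probe was called lower and 0 higher, against 0.395% and 0.297% of all probes. In the less-loss pool alone, 2 member probes were called lower and 0 higher, against 0.366% and 0.234% of all probes. All of these member calls were Hspa1a probes. The test across all probes, limma on the 2 pool ratios against 0, gave 0 member probes at an adjusted p under 0.05 and 0.0% of all probes. The adjusted p-values of the members ranged from 0.51 to 1, and at an unadjusted p under 0.05 the counts were 0 members and 11.6% of all probes. Fitted on the probes with signal alone, 6 member probes passed the unadjusted p, beside 21.7% of those probes, with a smallest adjusted p of 0.14. With normexp and loess 6 passed too, beside 11.9% of all probes, with a smallest adjusted p of 0.063. In both fits these were probes of Hsf1, Hspa1a, Hspa8 and Dnajb1, 3 lower and 3 higher. The test has 1 residual degree of freedom, so a count of 0 from it says little.

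Hspa1a encodes the HSP70 protein that is made in quantity under stress. The called probe (A_51_P117952) lies at chr17:35106796-35106855 on mm9, and the second, brighter probe (A_52_P82741) lies at chr17:35106766-35106825, both on the minus strand. They share 30 of their 60 bases, shown here because it means that the pair is close to a single measurement.
Hspa1a, bases shared by both probes: agggaaactaaactgtctttcagttacttt

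In the greater-loss pool, the processed signal of the called probe was 284 in GALP against 432 in the control with GALP in Cy5, and 204 against 328 with GALP in Cy3. In the less-loss pool it was 168 against 363 and 147 against 342. The GALP signal was below that of the control on every array, an order found for 15.7% of probes with signal. The 4 GALP signals did not overlap the 4 control signals. These are repeat readings of 2 GALP pools and 1 control pool, and the share of all probes without such overlap was not counted. As log2 ratios, the called probe gave -0.61 and -0.68 in the greater-loss pool and -1.12 and -1.22 in the less-loss pool. The mean was -0.91 ± 0.37 (SD, n = 2), or 0.64-fold in the first pool and 0.445-fold in the second. The brighter probe gave -0.42 and -0.59 in the greater-loss pool, then -0.84 and -1.11, with a mean of -0.74 ± 0.33 (SD, n = 2). It missed the call on 1 array, where its p-value was 0.044. In limma the adjusted p-values of the probes were 0.51 and 0.53. The difference between the pools was therefore larger than the gap between dye orientations at both probes, while the mean over the pools was not past the test. With normexp background correction and loess in place of the processed signals, the called probe gave -0.33 and was not called.

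**Figure D2:**
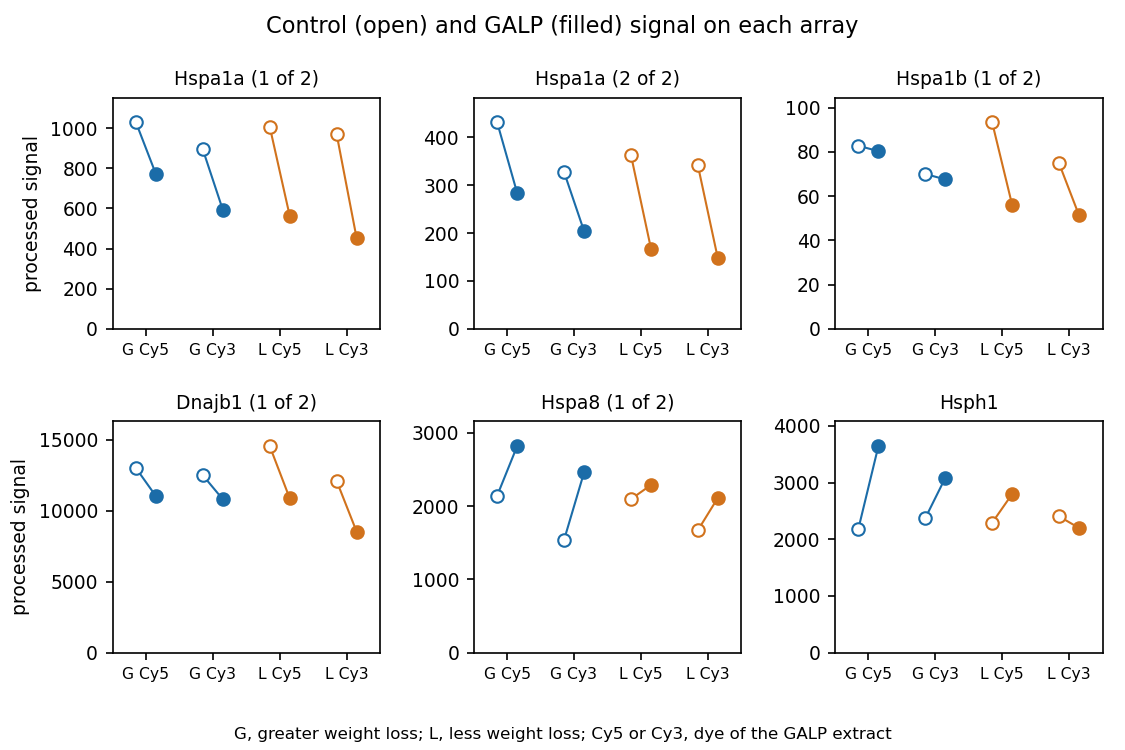
Processed signal (y axis, from 0, a separate scale for each probe) of the control (open) and of GALP (filled) on each of the 4 arrays (x axis) for 6 member probes. The lines of both Hspa1a probes run down on every array, those of Hspa8 run up, and that of Hsph1 runs down on 1 array.

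Hspa1b, the near-identical neighbour of Hspa1a, gave less certain values. Its brighter probe (A_52_P52803, chr17:35094200-35094259 on mm9) was dim, with signals of 51.2 to 80.3 in GALP and 70.0 to 93.4 in the control, so the groups overlapped. GALP was well above background on 3 of 4 arrays. The log2 ratios were -0.04 and -0.05 in the greater-loss pool and -0.74 and -0.55 in the less-loss pool, with a mean of -0.35 ± 0.42 (SD, n = 2) and p under 0.01 on 0 arrays. The lower value thus came from the less-loss pool. The other probe (A_52_P304902) was not well above background in any channel, and its ratios of 0.62, -0.53, 0.76 and -0.56 changed sign with the dye, so no level is given. No probe of Hspa1a shared more than 9 bases in a row with a probe of another member, but the coding sequences of both genes are almost the same, and binding of the other gene's RNA was not tested.

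The genes whose 4 ratios lay closest to the mean of Hspa1a and Hspa1b were sought among 15709 probes with signal. The nearest by Euclidean distance was a probe with a transcript name but no gene symbol (distance 0.034), followed by Setd5 (0.178), 1700066M21Rik (0.192), Tubb2a (0.197) and Tars (0.209). Setd5 encodes a SET domain protein, Tubb2a a β-tubulin and Tars the threonyl-tRNA synthetase. The mean log2 ratios of the 4 named genes ranged from -0.61 to -0.52, and none was called. The genes were chosen by these ratios, for closeness to a profile with a mean of -0.54, so neither is a separate result.

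Dnajb1, the J protein that feeds clients to HSP70 and is itself strongly heat inducible, was below 0 on all 4 arrays at its brighter probe only. That probe (A_51_P153486, chr8:86135660-86135719 on mm9) gave -0.24 and -0.21 in the greater-loss pool and -0.42 and -0.51 in the less-loss pool, with a mean of -0.35 ± 0.17 (SD, n = 2). Its control signal was 12097 to 14549 and its GALP signal 8510 to 11010, and p was under 0.01 on 0 arrays. A ratio below 0 on all 4 arrays was found for 15.7% of probes with signal. The second probe (A_52_P171663) gave -0.07, 0.14, -0.24 and -0.09, with a mean of -0.07 ± 0.14 (SD, n = 2). The probes of Dnajb1 therefore differed in size, and the second lay on both sides of 0.

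Hspa8, the constitutive HSP70 that folds new proteins and uncoats clathrin vesicles, lay above 0 on all 4 arrays at both probes. Its brighter probe (A_52_P12877, chr9:40611142-40611201 on mm9) gave 0.40 and 0.68 in the greater-loss pool and 0.13 and 0.34 in the less-loss pool, a mean of 0.39 ± 0.22 (SD, n = 2). The other probe (A_51_P170371) gave 0.39, 0.51, 0.05 and 0.26, a mean of 0.30 ± 0.21 (SD, n = 2). These are 1.45-fold and 1.37-fold in the greater-loss pool, under the 1.5-fold that a call needs. The p-value of the software was under 0.01 on 1 array at the brighter probe and on 0 at the other. Ratios of Hspa1a and Hspa8 thus lay on opposite sides of 0 on every array.

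Hsph1 encodes HSP110, a nucleotide exchange factor for HSP70. Its probe at chr5:150419426-150419485 on mm9 gave 0.74 and 0.38 in the greater-loss pool and 0.29 and -0.13 in the less-loss pool, a mean of 0.32 ± 0.34 (SD, n = 2). Its p-value was under 0.01 on 1 array, with GALP in Cy5 in the greater-loss pool. Hsph1 had the widest gap between dye orientations among member probes with signal (0.42 in the less-loss pool), so its sign there was not settled.

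Hsp90aa1, the inducible cytosolic HSP90 (chr12:111929254-111929313 on mm9), gave 0.25 and 0.06 in the greater-loss pool and -0.12 and -0.45 in the less-loss pool. Its mean was -0.06 ± 0.31 (SD, n = 2). Hsp90ab1, the constitutive form, gave 0.19, 0.26, -0.15 and -0.04 at its brighter probe (chr17:45705226-45705285 on mm9, mean 0.06 ± 0.23, SD, n = 2) and 0.35, -0.04, -0.13 and -0.16 at the other (mean 0.01 ± 0.21, SD, n = 2). Both genes therefore had means near 0 that came from values on either side of it. Hsp90aa1 and the brighter Hsp90ab1 probe had both arrays of each pool on their own side of 0, which held for 5.81% of probes with signal.

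Hspb1 encodes HSP27, a small heat shock protein that holds unfolded proteins without ATP and binds actin. Its probe, which spans chr5:136364927-136365114 on mm9, gave 0.46 and 0.35 in the greater-loss pool and 0.01 and -0.03 in the less-loss pool, a mean of 0.20 ± 0.29 (SD, n = 2). The arrays of the pools did not overlap, an order found for 13.6% of probes with signal, and the second pool lay near 0. Hspe1 encodes HSP10, the lid of the mitochondrial HSP60 chaperonin. Its probe at chr1:55147922-55147981 on mm9 gave 0.16 and -0.02 in the greater-loss pool, and its spots carried an outlier mark on both arrays of the other pool, so it has no mean over pools. Without the filter on these marks the missing values were -0.04 and 0.01.

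Hsf1, the transcription factor of the heat shock response, is switched on mainly by changes of its protein, so its RNA level is a separate measure. Its 3 probes lie within chr15:76330532-76331235 on mm9 and differed. The brightest (A_52_P487647) gave 0.04, -0.06, -0.02 and -0.11 (mean -0.04 ± 0.04, SD, n = 2). It carries an Ensembl transcript name and is the only member probe that did not lead to its symbol in the RefSeq gene table. The next (A_52_P647582) gave 0.22, 0.13, -0.00 and 0.19 (mean 0.13 ± 0.06, SD, n = 2), and the dimmest (A_51_P102943) gave 0.54, 0.53, 0.09 and 0.40 (mean 0.39 ± 0.21, SD, n = 2). None reached p under 0.01 on any array.

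As a group, the 9 member genes with a value on all arrays, each at its brightest probe, had a median log2 ratio of -0.04, beside 0.01 over the 16333 genes with signal. This member median is the value of the brightest Hsf1 probe, whose name was not matched in RefSeq. The member median turned to 0.054 when all probes of a gene were averaged. By pool the medians were 0.16 with greater weight loss and -0.10 with less weight loss, beside 0.00 over all genes in each. The ratio was below 0 on all 4 arrays for 4 member probes and above 0 on all 4 for 3. All 7 had signal on every array, as 15 member probes did, and over all probes with signal these shares were 15.7% and 11.4%. The sign over the 4 arrays was thus mixed within the group.

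The gap between the GALP pools was the more uniform measure. The control pool is shared, so it describes GALP RNA of 4 mice against GALP RNA of 4 other mice, with 1 pool on each side and no test. The median of greater minus less over the 9 genes was 0.42 on the log2 scale, beside 0.01 over all genes, and all 9 genes were above 0, as were 52.5% of all genes. At single probes with signal it ran from 0.05 (Hsf1, brightest probe) to 0.60 (Hspa1b, brighter probe). Both arrays of the greater-loss pool lay above both arrays of the other pool for 13 member probes. This order was found for 13.6% of probes with signal, and the reverse order for 11.4% of them and for 0 member probes. With GALP in Cy5 on both arrays compared, the median gap was 0.37, and with GALP in Cy3 it was also 0.37.

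Markers of other tissues differed between the pools far more than the members, and their part in the gap was not tested. The markers of skeletal muscle, 7 genes that all had signal, were at a median log2 ratio of 0.34 in the greater-loss and -2.14 in the less-loss pool. Their summed signal was 3245 to 4069 in the first pool, 543 to 658 in the second and 2730 to 3295 in the control, and all 7 were higher in the first. Markers of pancreas, 6 genes, went the other way, with medians of -3.81 and 0.84. Their sums were 6597 to 9354 in the greater-loss pool, 144208 to 150403 in the less-loss pool and 83641 to 109243 in the control. Of 7 markers of stomach and intestine, Gkn1 and Vil1 were at background, and Gkn2 and Tff1 were called lower, and in the less-loss pool they were at least 15.8-fold and at least 12.4-fold lower than the control. Tff2 was not called and gave -3.79 in the greater-loss and 0.68 in the less-loss pool. The sums over all markers on this list were 284 to 290 with greater weight loss, 3239 to 3788 with less weight loss and 2573 to 2978 in the control.

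Hepatocyte markers went both ways. Apoa1 gave 0.11 in the greater-loss and -0.22 in the less-loss pool, Cps1 0.29 and 0.05, and Apob 0.13 and 0.08. Alb gave -0.01 and 0.11, and Ttr 0.00 and 0.02. Arrays of the pools did not overlap for Apoa1, nor, in the reverse order, for Alb. These orders held for 13.6% and 11.4% of probes with signal. For Alb the nearest arrays of the pools were both at -0.01, so its order was close to a tie. The summed signal of these markers was 142447 to 211577 in the greater-loss pool, 155206 to 159548 in the less-loss pool and 130433 to 202684 in the control. The 5 hepatocyte markers on the array (of 6 listed) had medians of 0.11 and 0.05 in the 2 pools, and 3 of 5 were higher with greater weight loss. Of 6 Kupffer cell markers 1 was, and the median was 0.21, with Marco called higher. Endothelial markers had a median of 0.08, with Lyve1 called higher, and smooth muscle markers one of 0.18. In pooled tissue, fewer cells of a type and less RNA per cell cannot be told apart.

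**Figure D3:**
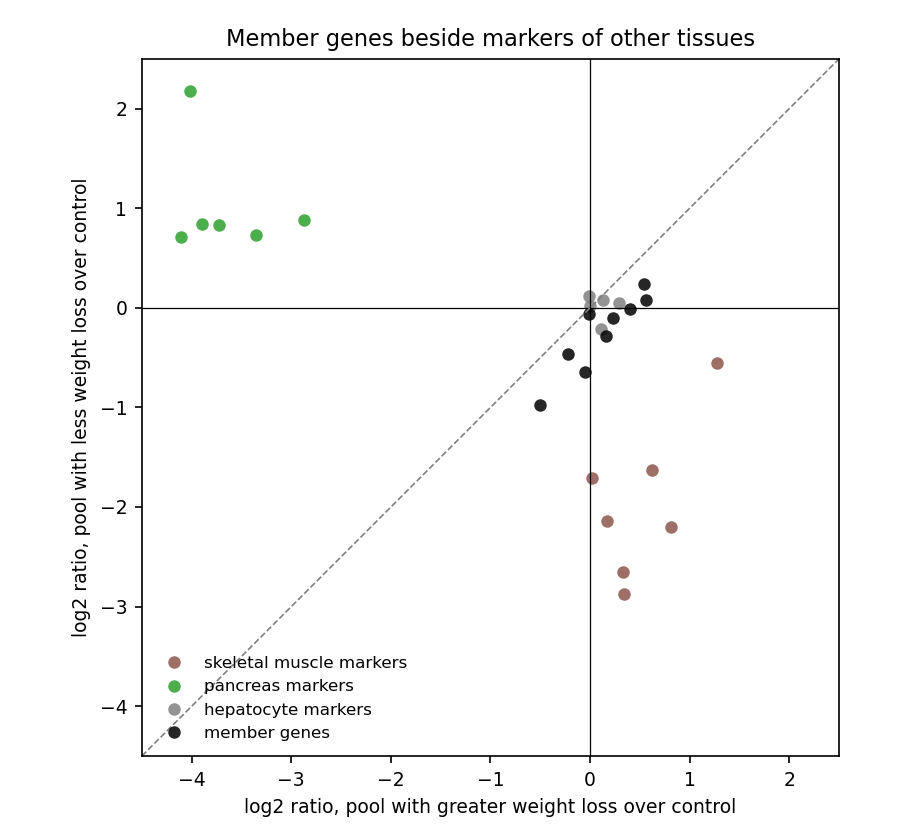
Log2 ratio over the shared control in the greater-loss pool (x axis) against that in the less-loss pool (y axis), 1 point per gene, for 9 member genes and 3 marker lists, with the line of equal values dashed. The member genes lie just below the line, the 7 muscle markers far below it and the 6 pancreas markers far above it.

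The wider chaperone network was read from lists of 81 further genes, of which 77 had signal. By the same rule 1 of their 158 probes was called higher and 1 lower, or 0.633% each. Over all probes these shares were 0.0585% and 0.132%. Fkbp5, an HSP90 co-chaperone of steroid receptors that glucocorticoids induce, was the gene called higher, with a mean of 1.23 ± 0.17 (SD, n = 2), or 2.34-fold. Another of its probes gave 0.61 ± 0.02, and at the third the control was well above background on 1 of 4 arrays. Pdia6, a disulfide isomerase of the endoplasmic reticulum, was called lower at a probe with GALP above background on 1 of 4 arrays (mean -1.85 ± 0.25, SD, n = 2), whereas its brightest probe gave -0.10 ± 0.01. The call of Pdia6 therefore rests on 1 dim probe of 4.

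Over the 77 genes the median log2 ratio was 0.02, with 0.07 in the greater-loss pool and -0.04 in the less-loss pool. Of these genes 60 had the higher ratio with greater weight loss, and the median gap was 0.10, under that of the members. The 19 co-chaperones of HSP90 and HSP70 were above 0 in this gap for 19 of 19 genes, with a median of 0.14, and the subunits of TRiC, the cytosolic chaperonin that folds actin and tubulin, for 7 of 8, with a median of 0.16. Mitochondrial chaperones and proteases had a median gap of 0.02 with 6 of 8 genes, and chaperones of the endoplasmic reticulum one of 0.04 with 9 of 14. Only 2 of the other heat shock factor genes had signal, and they went opposite ways, with 1 of 2 above 0 in this gap. Hsf4 gave 1.25 in the greater-loss and 0.19 in the less-loss pool, with the control above background on 1 of 4 arrays. Hsbp1 gave 0.07 and 0.20. Their median gap of 0.47 therefore describes neither gene. Of the 2 cold-inducible genes, Cirbp had the higher ratio with less weight loss, at -0.72 in the greater-loss and -0.48 in the less-loss pool. Rbm3 was level, at 0.01 and 0.02 with arrays that overlapped, and the median gap of both genes was -0.12. These gaps have no test.

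**Figure D4:**
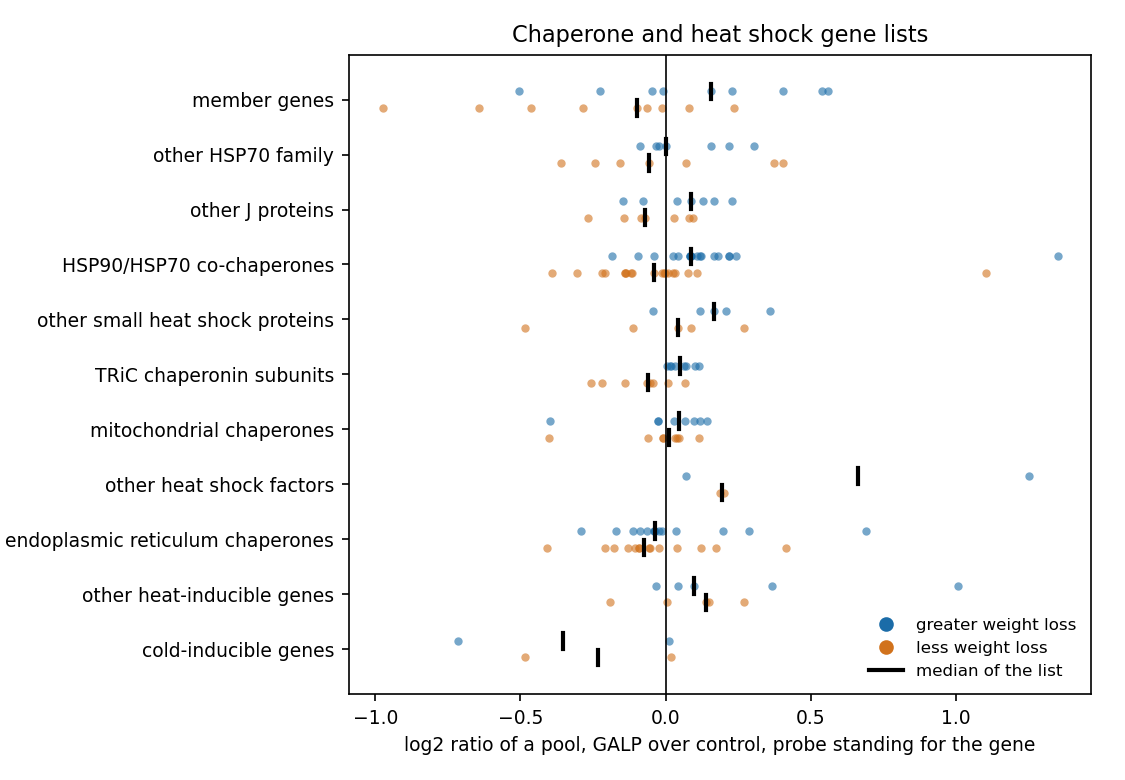
Log2 ratio of each pool over control (x axis) for the genes of each chaperone list (rows), 1 point per gene and pool at its brightest probe, with the median of the list as a black bar. The member medians are 0.16 and -0.10, and Fkbp5 stands to the right of the other co-chaperones in both pools.

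Among other HSP70 genes, Hspa12b was highest (0.35 ± 0.07) and Hspa12a lowest (-0.18 ± 0.26). Among J proteins Dnaja1 was highest (0.13 ± 0.14) and Dnajb4 lowest (-0.15 ± 0.00), and among co-chaperones Bag2, an inhibitor of HSP70 client ubiquitination, was lowest (-0.29 ± 0.15). In TRiC the range was from Cct3 (-0.12 ± 0.19) to Tcp1 (0.05 ± 0.02). None of these genes was called.

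Small heat shock proteins ran from Cryab (-0.18 ± 0.43) to Hspb8 (0.31 ± 0.06). Cryab, which is abundant in muscle, gave 0.12 with greater weight loss and -0.49 with less weight loss. The muscle markers had this direction, as did 4 of the 5 genes of this list with signal, Cryab among them. Any part of muscle RNA in the Cryab values was not tested. In mitochondria, Clpx, part of the ClpXP protease, was lowest (-0.40 ± 0.00) and the protease Lonp1 highest (0.12 ± 0.00). In the endoplasmic reticulum, Hsp90b1, the HSP90 of that compartment, was lowest (-0.35 ± 0.08), and Serpinh1, the collagen chaperone, highest at 0.69 and 0.17 (0.43 ± 0.37). Hspa1l, Dnajb5, Hspb3 and Hsf2 were at background at their brightest probes.

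Of the other heat shock factor genes, Hsbp1, which binds HSF1 trimers, gave 0.14 ± 0.09. Hsf4 gave 1.25 and 0.19, with the control above background on 1 of 4 arrays. Among other heat-inducible genes the stress transcription factor Atf3 was highest, at 1.01 and 0.27 (0.64 ± 0.52). Cirbp, an RNA-binding protein that rises in the cold, gave -0.72 and -0.48 (-0.60 ± 0.16), while Rbm3, also cold inducible, gave 0.01 ± 0.00. None of these was called.

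Since the members share a regulator, their promoters were searched for the letters that its trimers bind. RefSeq promoter windows on GRCm38.p6, 250 bases before to 50 after a transcript start, were found for 6 of 10 members in 8 windows, and Hsf1, Hspa8, Hsp90aa1 and Hsp90ab1 were not analysed here. GAANNTTC (tail-to-tail) and TTCNNGAA (head-to-head) were searched, where N is any base. Each reads the same on both strands, and the forms may overlap. The windows shown are those of the 2 inducible HSP70 genes, whose ratios in the less-loss pool were the lowest among the members, and of the members with overlapping matches. Capitals mark the matches.
Hspa1a, chr17:34972107-34972406, minus strand: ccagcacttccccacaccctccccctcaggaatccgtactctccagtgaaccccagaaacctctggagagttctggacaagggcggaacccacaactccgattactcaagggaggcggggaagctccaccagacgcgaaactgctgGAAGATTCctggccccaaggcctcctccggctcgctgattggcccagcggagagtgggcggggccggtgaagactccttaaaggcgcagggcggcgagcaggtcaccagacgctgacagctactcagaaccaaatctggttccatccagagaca
Hspa1b, chr17:34959189-34959488, minus strand: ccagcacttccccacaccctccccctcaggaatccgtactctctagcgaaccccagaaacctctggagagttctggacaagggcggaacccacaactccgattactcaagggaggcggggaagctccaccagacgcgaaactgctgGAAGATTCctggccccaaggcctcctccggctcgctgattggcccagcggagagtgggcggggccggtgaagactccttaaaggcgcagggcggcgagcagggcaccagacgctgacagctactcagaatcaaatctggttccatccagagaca
Hsph1, chr5:149636266-149636565, minus strand: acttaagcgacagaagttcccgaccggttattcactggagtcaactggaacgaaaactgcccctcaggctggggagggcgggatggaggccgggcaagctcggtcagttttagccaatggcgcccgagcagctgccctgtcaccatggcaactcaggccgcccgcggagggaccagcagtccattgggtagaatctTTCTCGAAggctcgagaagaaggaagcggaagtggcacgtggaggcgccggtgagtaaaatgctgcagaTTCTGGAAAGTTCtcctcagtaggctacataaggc
Hspe1, chr1:55087898-55088197, plus strand: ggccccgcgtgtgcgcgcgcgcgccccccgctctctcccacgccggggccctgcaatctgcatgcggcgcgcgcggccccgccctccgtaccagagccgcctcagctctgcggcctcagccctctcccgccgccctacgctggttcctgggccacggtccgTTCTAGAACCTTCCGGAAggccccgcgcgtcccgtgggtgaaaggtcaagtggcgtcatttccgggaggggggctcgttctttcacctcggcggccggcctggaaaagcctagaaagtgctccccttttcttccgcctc

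The Hspa1a and Hspa1b windows were equal at 296 of 300 positions and held 1 match each, beginning 104 bases before the start. Their brighter probes gave -0.51 and -0.05 in the greater-loss pool and -0.98 and -0.64 in the other. Hsph1 had 3 matches, of which 2 overlap in 13 bases after the start, and its second annotated start holds the same letters. Hspe1 had 3 matches overlapping in 18 bases, beginning 89 bases before the start, and the window of Hspd1, the HSP60 gene that lies head to head with it, held the same run. Hspb1 had 2 separate matches, and the 2 windows of Dnajb1 had 0. The missing match says only that these letters are not in these windows.

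Of 32851 windows of this length in the table, 15.1% held at least 1 match, 0.603% held 2 or more that overlap and 0.0244% held 3 or more. Among the members, 5 of 6 genes held at least 1, 2 genes held 2 or more that overlap and 1 gene held 3. Of 69 other chaperone genes with a window, 3 held 2 or more that overlap, namely Hspd1, Dnajb6 and Chordc1. The matches are a description of the letters and not of binding.

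**Figure D5:**
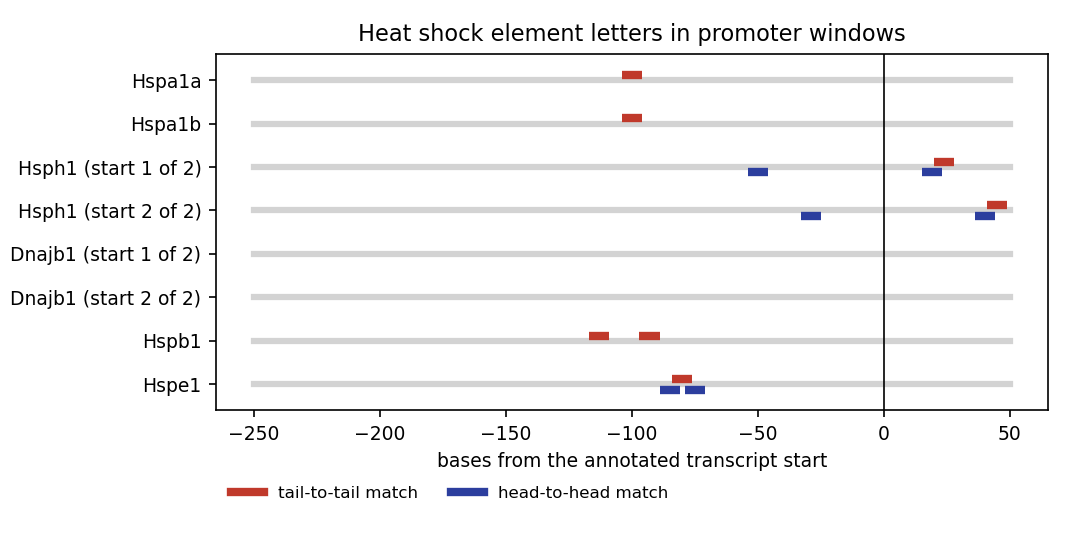
Position of tail-to-tail (red, GAANNTTC) and head-to-head (blue, TTCNNGAA) matches in bases from the annotated transcript start (x axis) in the 8 windows of 6 member genes (rows), with the grey bar as the searched window. The match of Hspa1a and Hspa1b is at the same place, and Hspe1 has 3 that overlap.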

How the data were processed

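RNA was pooled, labelled and hybridised in dye-swap pairs as described above. Per the file headers, the scans were read with Agilent Feature Extraction 12.0.3.1, whose processed intensity per channel is background-subtracted and LOWESS-normalized between dyes, whereas the submitters' processing notes name version 11.0.1.1. The deposited log10 ratio is that of processed Cy5 over Cy3, and the deposited p-value is that of its error model within an array. In the deposited series table these log10 values are given as GALP over control, and this served as an alternative.

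All ratios were expressed as log2 of GALP over control. Spots marked as outliers (232 to 319 of 43379 per array) were left out, then replicate spots and the dye-swap pair of each pool were averaged in turn. On the arrays 40.5% to 46.7% of spots per channel were well above background, and 0 were saturated. Precision is limited by the number of pools, 2 of GALP and 1 of the control, since the arrays of a pair hold the same RNA. A gene's list value came from its probe with the highest mean signal, without genes at background on every array. limma 3.58.1 in R 4.3.3 (data.table, version 1.17.8) fitted the 2 pool ratios against 0 with lmFit and eBayes and Benjamini-Hochberg adjustment over 41037 probes. All arrays lay on 1 slide and 1 scan, so no block was fitted. Python 3.11.15 with numpy 2.4.6, pandas 2.3.3 and matplotlib 3.10.9 was used.

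Named genes were all members, genes of the chaperone lists with a called probe, the highest and lowest gene of each list, and the 5 nearest to Hspa1a and Hspa1b in ratio. A value that this rule would name is not reported here. Members and lists were chosen with earlier results of these data known. The second motif, TTCNNGAA, and the comparison of pools were added after values had been seen. Alternatives were normexp with loess, centring, the series table, no outlier filter, other p rules, other limma settings, and each array or pool left out. Probe positions are on mm9 (NCBI37) per the file headers, and promoters are from RefSeq on GRCm38.p6.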

Additional observations from a re-analysis of the deposited data

Results flagged for a closer look

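At the Hsp90aa1 probe the greater-loss pool lay above 0 on both arrays (0.16) and the less-loss pool below 0 on both (-0.28), a difference of 0.44 on the log2 scale. The brighter Hsp90ab1 probe had the same split (0.23 and -0.10), a difference of 0.33. Each weight loss group is 1 pool, so neither difference was tested.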

How the results depend on the processing

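The count of 1 member probe called lower became 0 with normexp and loess, beside 0.0634% of all probes, where the Hspa1a probe A_51_P117952 gave -0.33. It was 2 with p under 0.01 on at least 1 array of each pool, beside 0.407% of all probes, and 2 with no p-value rule, beside 0.877%. With 1 array or pool left out it was 1 to 2, beside 0.158% to 0.397% of all probes. It was 2 without the greater-loss pool and without its array with GALP in Cy5. The Hspa1a probe was among the calls in each of these settings but normexp. No member was called higher in any setting, beside 0.0219% to 0.375% of all probes. The median of the member genes turned from -0.04 to 0.054 with the mean over all probes of a gene, and was -0.10 to 0.16 with 1 array or pool left out. It was 0.017 without the array of the less-loss pool with GALP in Cy3 and 0.16 without that pool, so its sign is not settled. The median gap between pools, whose alternatives were chosen after seeing the data, was 0.32 with normexp and loess, 0.41 after centring, 0.31 with the mean over all probes of a gene, 0.37 in the Cy5 orientation alone and 0.37 in the Cy3 orientation alone, and 0.34 to 0.47 with 1 array left out. The gap was above 0 for 9 of 9 genes in each setting counted per gene. Of all genes, 52.5% were above 0 in the main setting, the only setting with this share. In settings counted per probe, both greater-loss arrays lay above both less-loss arrays for 10 to 13 member probes. This order held for 12.96% to 13.79% of probes with signal. limma called 0 members in every setting. Over all probes it called 0, but 132 with normexp and loess, and 1 of the 15724 probes with signal. At an unadjusted p under 0.05 it passed 0 members with an intensity trend, 1 after centring and 6 with normexp and loess or on probes with signal. Of 128 values of single probes under alternatives other than leaving out a pool, which with 2 pools moves a mean by a fixed share of its SD, 120 moved by less than 1 SD and 8 by more. Hspe1, with no SD over pools, was left out of this count. No paired analysis was possible because each pool is compared with the same control pool. Why values moved under other settings was not tested.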
